A study of Mus musculus with 3 samples.

Results

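The regions described here are the ERα-bound regions of the mouse mammary gland that lie farther than 100 kb from every annotated transcription start site (TSS). A shared region is the interval covered by a peak of both ERα ChIP-seq replicates, with a minimum overlap of 1 bp. Its distance is taken from its midpoint to the TSS of the nearest annotated transcript, coding or not. By this rule 697 of the 6243 shared regions on chromosomes 1 to 19 and X (11.2%) were far regions, and the other 5546 are called nearer regions. Distance alone chose them, and neither scores nor sequence entered the rule. The peaks of replicate 2 alone gave 755 far peaks by the same distance and those of replicate 1 alone gave 1051, more than 1.5 times the shared number.

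ChIP-seq uses an antibody to recover the DNA a protein is bound to and sequences it against input chromatin. All samples came from mammary glands of wild-type (WT) BALB/c mice. At 6 weeks of age the ovaries, the main source of estrogen, were removed, and after 10 days of rest each mouse received 100 ng of 17β-estradiol, which acted for 2 h. There were 2 ERα ChIP replicates, each from glands pooled over several mice, and 1 input library for both. Without a vehicle-treated ChIP-seq library, the regions show where ERα was bound after the hormone, and a change caused by it cannot be read from them. Whole glands hold luminal, basal, stromal and fat cells, and the lists do not tell in which of them a region was bound. The lists also hold no expression values, so the tissue label was not checked against marker genes.

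ERα is a nuclear receptor that, once it has bound estradiol, binds DNA as a dimer. Its preferred site is the estrogen response element (ERE), a pair of inverted GGTCA half-sites separated by a short spacer, and it also reaches DNA beside or through other factors such as AP1 and forkhead proteins. Most of its binding sites are enhancers rather than promoters, and enhancers can act on genes at a long distance through folding of the chromatin, so the nearest gene on the line of the chromosome need not be the gene acted on.

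An ERE without mismatch in the 400 bp window around the midpoint was found in 42 far regions, and the elements of the 10 with the highest scores are shown first, because they show the receptor's own site in sequence far from any promoter. Sequences are from the plus strand of NCBIM37, the assembly also called mm9, and run 5′ to 3′. The 13 bases of the element are in capitals, with 14 bases of flank on each side, and the names are those of the flanking or host protein-coding genes.
Prok2–Rybp (chr6:100010041-100010081): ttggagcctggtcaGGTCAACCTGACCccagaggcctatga
Med13l–Tbx3 (chr5:119263006-119263046): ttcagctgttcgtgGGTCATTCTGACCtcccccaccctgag
Gm5449–Drd1a (chr13:53754722-53754762): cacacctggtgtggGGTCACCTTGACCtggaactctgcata
9430031J16Rik–Irs1 (chr1:81893917-81893957): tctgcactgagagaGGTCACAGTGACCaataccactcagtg
Creb5–Tril (chr6:53658067-53658107): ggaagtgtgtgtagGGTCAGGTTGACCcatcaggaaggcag
Tle3–Rplp1 (chr9:61523337-61523377): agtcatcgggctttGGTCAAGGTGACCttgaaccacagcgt
Trps1–Eif3h (chr15:50903159-50903199): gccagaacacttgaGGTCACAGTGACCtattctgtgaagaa
1700112E06Rik intron (chr14:22970826-22970866): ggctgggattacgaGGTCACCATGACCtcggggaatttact
Plk2–Actbl2 (chr13:111840643-111840683): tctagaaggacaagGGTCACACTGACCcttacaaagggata
Gm8730–Cdh5 (chr8:105879187-105879227): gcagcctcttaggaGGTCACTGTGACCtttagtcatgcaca

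Among all 42 elements 17 different spacer versions occurred when both strands were counted as one. The commonest, GGTCACAGTGACC, was in 5 regions, among them those beside Irs1 and Trps1 above and, on the other strand, that beside Cdh5. No single version of the element accounted for most of the 42. Below the first 2 regions, the strongest of the 10 was beside Drd1a, a dopamine receptor gene, with scores of 1895 and 1323 at 133699 bp from the nearest TSS. The region beside Irs1, the insulin receptor substrate, scored 1358 and 971. It was 154365 bp from the nearest TSS, that of Gm5530, and 335767 bp from the body of Irs1. That beside Trps1, a GATA-type zinc-finger repressor of mammary epithelium, scored 1258 and 756 at 181515 bp from the nearest TSS. The one farthest from its nearest TSS, at 489404 bp, was beside Cdh5, the endothelial cadherin, with 1043 and 720. It was 746344 bp from Cdh5. All 10 elements lay within 77 bp of the midpoint.

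The wider surroundings of the highest-scoring far region are shown as well. Between Prok2 and Rybp, the ERE, in capitals, was the only match to the 7 motifs searched in this 240-base stretch.
Prok2–Rybp midpoint (chr6:100009896-100010135): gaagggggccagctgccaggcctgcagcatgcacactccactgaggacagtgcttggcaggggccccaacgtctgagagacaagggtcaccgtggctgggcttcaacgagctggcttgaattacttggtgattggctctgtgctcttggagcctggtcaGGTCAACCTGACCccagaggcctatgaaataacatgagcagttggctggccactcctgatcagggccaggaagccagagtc

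For the other high-scoring far regions, the best match to the ERE anywhere in the region is shown in capitals, because in several of them it lay outside the 400 bp window. The element beside Cryba4 had no mismatch and was 242 bp from the midpoint. The next 4 had 1 mismatch in the 10 fixed bases, and the last pair, beside Irf2bp2 and in Spon1, had 2 mismatches.
C130026L21Rik–Cryba4 (chr5:112400339-112400379): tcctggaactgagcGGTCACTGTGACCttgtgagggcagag
Plxnc1–Cradd (chr10:94602483-94602523): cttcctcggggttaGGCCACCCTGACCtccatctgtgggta
St3gal1–Zfat (chr15:67732351-67732391): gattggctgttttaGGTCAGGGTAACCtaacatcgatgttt
Trpc6–Pgr (chr9:8733004-8733044): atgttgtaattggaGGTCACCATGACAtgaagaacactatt
Gm9843–Usp25 (chr16:76695742-76695782): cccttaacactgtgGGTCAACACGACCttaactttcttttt
Irf2bp2–Tomm20 (chr8:129260550-129260590): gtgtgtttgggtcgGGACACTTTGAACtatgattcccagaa
Spon1 intron (chr7:121105831-121105871): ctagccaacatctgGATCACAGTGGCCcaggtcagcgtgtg

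The region between Banp and Gm22 on chromosome 8 held a tandem array, in which 8 elements followed each other at intervals of 17 to 19 bp. Of these, 7 had 1 mismatch and 1 had 2 mismatches, and the 8 were of 6 different sequences. Capitals mark the elements.
Banp–Gm22 array (chr8:124676075-124676237): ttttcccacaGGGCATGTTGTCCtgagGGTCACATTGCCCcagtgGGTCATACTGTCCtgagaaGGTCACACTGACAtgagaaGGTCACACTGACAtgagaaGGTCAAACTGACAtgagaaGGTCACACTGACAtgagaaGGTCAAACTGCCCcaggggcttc

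The deposited score of a peak is 10 times the negative log10 of its MACS p-value, so that 80 stands for the p-value of 1e-08 at which the lists stop. It depends on sequencing depth and on enrichment, and serves to rank peaks within a list. In replicate 1 the far regions had a median score of 238, with quartiles of 155 and 468. In replicate 2 it was 180, with quartiles of 119 and 342. Nearer regions had medians of 248 and 178, so the classes differed by far less than the spread within either of them. The median width of the shared interval was 551 bp for far regions and 560 bp for nearer ones. Among the 100 shared regions with the highest lower score of the pair 16 were far, and among the highest 500 there were 54 (10.8%), against 11.2% of all shared regions.

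Across the 679 far regions made by 1 peak of each list that overlapped no other, Spearman's rho between the replicates was 0.841, and across 5411 nearer ones it was 0.860. These are descriptions across regions, which share libraries and are not replicates. Replicate 1 had the higher score in 76.6% of the far pairs and 81.7% of the nearer pairs, with a median ratio of 1.30 and 1.32. A few regions lie off the common trend because a wide peak of replicate 2 covered more than 1 peak of replicate 1. Beside Pgr, for example, neighbouring regions with replicate 1 scores of 511 and 1946 carry the same replicate 2 score of 2148.

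**Figure D1:**
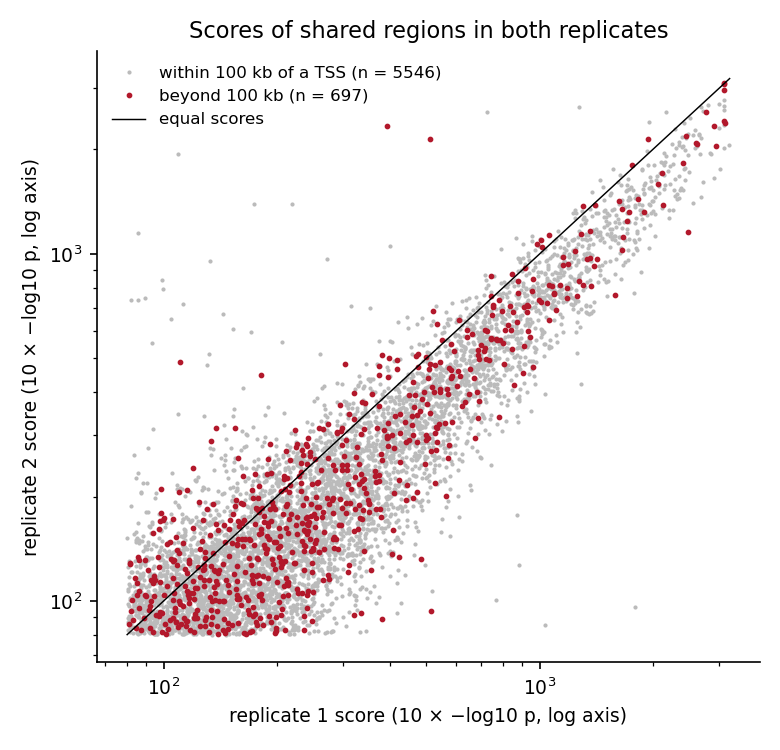
Score of each shared region in replicate 1 (x axis) and replicate 2 (y axis), both 10 times −log10 p on log axes, with far regions in red over nearer regions in grey and a line of equal scores. The red points span the whole range of the grey ones, and 76.6% of the far pairs have the higher score in replicate 1.

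How often a far peak was found again did not depend detectably on distance. Of the 1051 far peaks of replicate 1, 66.1% overlapped a replicate 2 peak, against 64.8% of its nearer peaks, a difference of 1.37 percentage points (95% interval -1.72 to 4.35, two-sided Fisher's exact test, p = 0.392). Of the 755 far peaks of replicate 2, 91.5% overlapped a replicate 1 peak, against 90.5% (difference 1.00, interval -1.32 to 2.94, Fisher's exact test, p = 0.426). The far peaks of replicate 1 without a partner had a median score of 106, against 238 for those with one.

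The distances, which the rule itself bounds from below, had a median of 152559 bp and fell off steeply. There were 332 regions at 100 to 150 kb, 180 at 150 to 200 kb, 114 at 200 to 300 kb, 63 at 300 to 500 kb and 8 beyond 500 kb. Just inside the limit, and so not among the far regions, were regions at 99870 bp (chr8:122800928-122801549, scores 187 and 179) and 99994 bp (chr12:35979272-35979853, between Snx13 and Ahr, 210 and 106). Just outside it were regions at 100285 bp (chr10:118544727-118545232, between Dyrk2 and Cand1, 395 and 326) and 100289 bp (chr15:96630191-96630645, between Slc38a2 and Slc38a4, 178 and 119).

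Sequence beyond 100 kb from TSSs makes up 22.0% of the assembled sequence and held 11.2% of the shared regions. This is a density of 1.24 per Mb, against 2.78 per Mb in the rest. Chromosome 13 stood apart with 98 far regions, a density of 3.24 per Mb against 2.89 for its nearer sequence. On the other chromosomes the far density was between 0.383 and 2.30 per Mb. It exceeded the nearer density on 2 of the 20 chromosomes, 13 and X, and X had only 6 far regions. The 98 regions of chromosome 13 lay in 34 gaps or genes, and 54 of them in 7 that held 5 or more each.

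**Figure D2:**
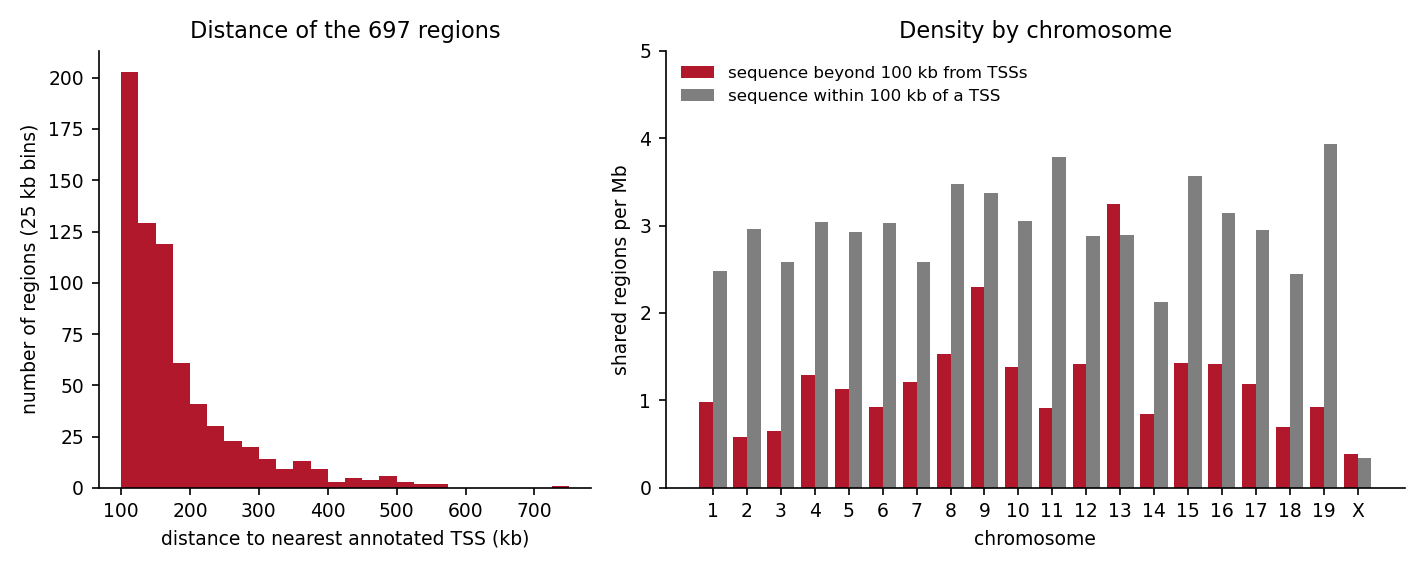
Left, number of far regions by distance to the nearest TSS in 25 kb bins; right, shared regions per Mb of sequence beyond 100 kb (red) and within 100 kb (grey) on each chromosome. The counts fall from the 100 kb limit outward, and the red bar of chromosome 13 stands at 3.24 per Mb, above its grey bar at 2.89.

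Of the far regions 572 (82.1%, exact 95% interval 79.0 to 84.8) lay outside protein-coding genes, 124 (17.8%, 15.0 to 20.8) in an intron and 1 in an exon. Of the nearer regions 49.7% were intergenic and 45.9% intronic, a difference to which the distance rule itself contributes. For the 572 outside coding genes, the gap between the coding genes on either side had a median of 586475 bp. This gap reached 500 kb, the size called a gene desert here, for 331 far regions (47.5% of all far regions, 43.7 to 51.3). The share was 6.58% of all nearer regions. The gap reached 1 Mb for 104 far regions (14.9% of all far regions). The nearest TSS was that of a coding gene for 481 far regions and of a noncoding gene for 216. To the nearest coding TSS the median was 165922 bp, and 325 regions were upstream of it and 372 downstream.

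The 5 far regions with the greatest distance were of low to moderate score. The farthest, at 728229 bp, lay between Nova1, a neuronal RNA-binding protein, and Gm1818 (chr12:48731142-48731454) and had scores of 84.4 and 83.7. A region between Gm9726 and Flrt2, a leucine-rich transmembrane protein, at 568626 bp (chr12:95735224-95735687) was the exception, with scores of 723 and 599 and an ERE with 1 mismatch. The others, at 551578 bp between Nmbr and Cited2, at 529109 bp in the same Flrt2 gap and at 525103 bp upstream of the glutamate receptor gene Grm7, had scores from 91.5 to 174 in the 2 replicates. None of these 3 held an ERE with at most 1 mismatch.

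Windows of 400 bp around the midpoints were searched on both strands, the ERE (GGTCANNNTGACC) with at most 1 mismatch in its 10 fixed bases and the other motifs as exact letters. An ERE was found in 200 far regions (28.7%, exact interval 25.4 to 32.2), against 31.4% of nearer regions and 31.1% of all shared regions. The difference of -2.72 points (interval -6.18 to 0.96) did not pass the test (two-sided Fisher's exact test, p = 0.152, Benjamini-Hochberg adjusted over 7 motifs 0.266). In windows 5 kb to either side of the far regions that overlapped no peak, 11 of 1341 held one (0.820%). The shares in far regions and in the sequence beside them were thus far apart, while those in far and nearer regions were close.

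The ERE was placed near the middle of the far regions. Its centre was within 50 bp of the midpoint in 137 of the 200 regions (68.5%), where an even spread over the window would give 26.0%, and the median offset was 32 bp. The midpoint was taken from the peak edges alone. Over the whole shared interval instead of the window, 208 far regions (29.8%) and 32.6% of the nearer ones had an ERE. The region with the array beside Banp held 8 EREs with at most 1 mismatch over its whole interval, the most of any far region, and a nearer region held 12.

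Scores ran with the match to the best ERE in the 400 bp window. The 42 far regions with an ERE without mismatch had median scores of 370 in replicate 1 and 361 in replicate 2, and the 158 with 1 mismatch had 323 and 254. With 2 mismatches (239 regions) the medians were 240 and 188, and the 258 with 3 or more had 198 and 151. Medians fell at each step in both replicates, while the quartile ranges of neighbouring classes overlapped. Some strong, wide regions had a closer match outside the window. One beside Pgr, with scores of 2600 and 2085, counted among those with 3 or more, though its interval held an ERE with 1 mismatch.

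**Figure D3:**
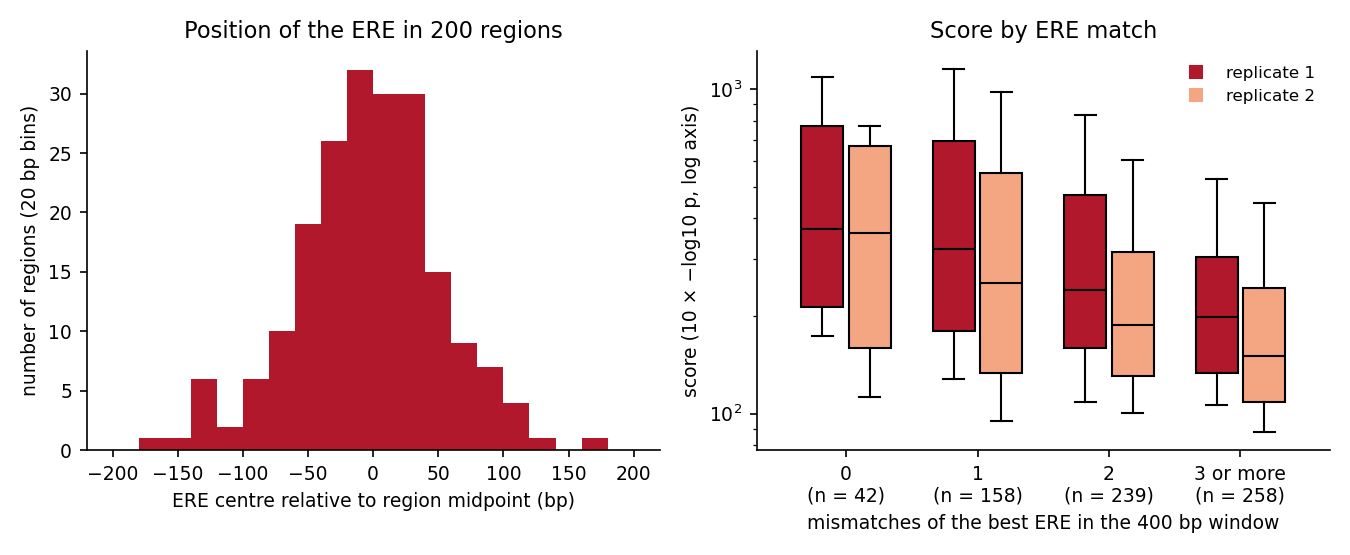
Left, position of the ERE centre relative to the midpoint in the 200 far regions with at most 1 mismatch, in 20 bp bins; right, scores in each replicate by the number of mismatches of the best ERE in the window (boxes, quartiles with the median; whiskers, 10th and 90th percentiles; log axis). EREs gather around the midpoint, and the replicate 1 median falls from 370 to 198 from no mismatch to 3 or more.

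AP1, the Fos and Jun dimer, binds TGACTCA or TGAGTCA, which was present in 17.2% of far regions, 16.7% of nearer regions and 7.23% of the flanking windows. CAAGGTCA, the extended half-site of SF1 and the estrogen-related receptors, whose last 5 bases are those of the ERE's first half-site, was in 10.0%, 9.27% and 3.36%. The RUNX sequence TGTGGTT was in 10.5%, 9.32% and 8.72%. None of these differences between far and nearer regions passed the test (adjusted p between 0.470 and 0.706, Fisher's exact test), and the intervals of the difference reached from -2.25 to 3.75 points over the 3 motifs. Within the far regions SF1 was in 14% of those with an ERE and 8.45% of those without, and AP1 in 16.5% and 17.5%. In 190 far regions (27.3%) and 30.6% of nearer regions none of the 7 motifs was found.

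GATA, FOXA1 and PAX2 sequences gave the 3 smallest p-values against nearer regions. AGATAA, bound by GATA factors such as the luminal regulator GATA3, was in 24.7% of far regions and 20.2% of nearer ones, a difference of 4.52 points (interval 1.28 to 8.01, Fisher's exact test, p = 0.00631, adjusted 0.0442). The flanking windows held it in 23.5%, so the far regions were close to the sequence around them. The windows of far regions also had a lower GC content, with a median of 45.5% against 48.5% in nearer regions and 43.0% in the flanks. With windows grouped by GC, GATA was in 38.8% of far and 35.6% of nearer windows under 40% GC, in 28.0% and 27.1% at 40 to 45%, in 19.2% and 21.8% at 45 to 50%, and in 18.6% and 12.5% above 50%. The part of base composition in the difference was not tested. The call was lost with peaks at a p-value of 1e-10 (adjusted p 0.137) or 1e-20 (0.154), with 50% reciprocal overlap (0.0615) and in 200 bp windows (0.220), all by Fisher's exact test.

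TATTTAC or TGTTTAC, forkhead sequences bound by FOXA1, a factor that opens chromatin for ERα, was in 16.8% of far and 13.7% of nearer regions (difference 3.10 points, Fisher's exact test, p = 0.0280, adjusted 0.0858). GTCACG, the PAX2 sequence, whose first 5 bases can also arise from an ERE half-site, was in 7.03% and 9.43% (difference -2.40, Fisher's exact test, p = 0.0368, adjusted 0.0858). Neither passed after adjustment. The flanking windows held the FOXA1 sequences in 11.5% and the PAX2 sequence in 4.18%. The part of base composition in these 2 differences was not tested. The FOXA1 difference passed in the peaks of replicate 1 alone (adjusted p 0.00233) and of replicate 2 alone (0.0348), lists that include the peaks of the shared regions. It also passed with coding TSSs only (0.031) and in 1000 bp windows (0.0189). It failed with peaks at a p-value of 1e-10 (0.335) or 1e-20 (0.511) and with 50% reciprocal overlap (0.0958). It also failed in 200 bp windows (0.22) and over whole regions (0.121), all by Fisher's exact test.

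**Figure D4:**
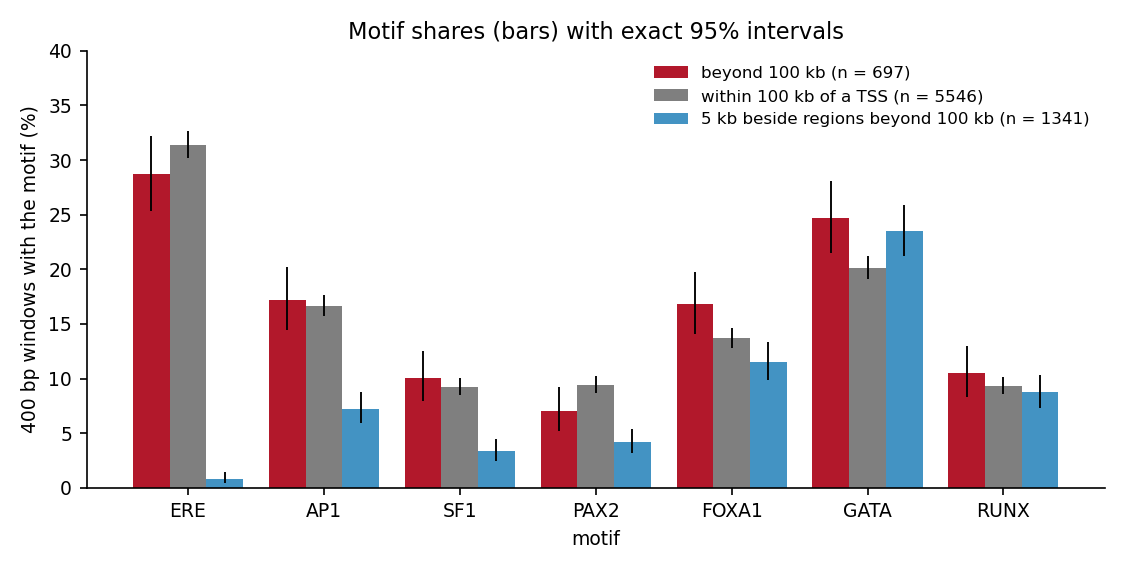
Share of 400 bp windows that hold each motif (bars, y axis in percent) in far regions (red), nearer regions (grey) and windows 5 kb beside far regions (blue), with exact 95% intervals. The ERE is at 28.7%, 31.4% and 0.820%, and GATA is at 24.7%, 20.2% and 23.5%.

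A far region had its nearest other shared region at a median of 33737 bp, against 31871 bp for nearer regions, and 57.5% and 58.5% had one within 50 kb. The nearest other far region was at a median of 39517 bp. Joined at 50 kb, the far regions formed 451 runs, of which 328 were single regions and 51 held 3 or more, 225 regions in all (32.3%). They lay in 337 gaps or host genes, of which 188 held 1 far region and 24 held 5 or more (189 regions, 27.1%).

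The ERE was unevenly spread over these groups. Of the 188 far regions alone in their gap or gene, 34.0% held an ERE (interval 27.3 to 41.3), and of the 189 in groups of 5 or more, 19.6% did (14.2 to 26.0). The intervals did not overlap, but members of a group share their locus and the difference was not tested. Median scores of the grouped regions were 240 and 184, against 212 and 158 for the solitary ones. With distance, the ERE share was 26.5% at 100 to 150 kb, 29.4% at 150 to 200 kb, 28.1% at 200 to 300 kb and 38.0% beyond 300 kb (27 of 71, interval 26.8 to 50.3), and these intervals overlapped.

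The longest run was the 12 far regions between Trpc6, a cation channel, and Pgr, the progesterone receptor and a classical ERα target. They covered 65644 bp (chr9:8693029-8758672), 141965 to 207046 bp upstream of Pgr. Those at 189221 to 207046 bp from Pgr were nearer to the TSS of Trpc6, at 148941 to 166766 bp from it. The one farthest from Pgr was 12808 bp past the end of Trpc6. Replicate 1 scores were 85.4 at the lowest, 491 at the median and 2600 at the highest, and replicate 2 scores 134, 444 and 2148. Of the 12, 3 had an ERE in the window. The strongest, at 167171 bp (chr9:8732580-8733916), had scores of 2600 and 2085 and an ERE with 1 mismatch 224 bp from its midpoint, printed above. No other shared region lay within this span.

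The other loci with the most far regions were of several kinds. Between Pik3r1, the regulatory subunit of phosphoinositide 3-kinase, and the lymphocyte receptor gene Cd180, a gap of 945465 bp on chromosome 13 held 12 far regions with replicate 1 scores of 100 to 1307 (median 230) and replicate 2 scores of 83.2 to 812 (median 164). Between Gm9843 and Usp25, a deubiquitinase, a gap of 610356 bp on chromosome 16 held 11, with medians of 198 and 167 and highest scores of 2614 and 2073. Inside Gm12824, a predicted coding gene, 11 intronic far regions stood within 48850 bp (chr4:114182723-114231572), with scores of 112 to 1272 in replicate 1 and 81.7 to 838 in replicate 2. After these came the gap between Trps1 and Eif3h, a translation factor subunit, with 10 far regions and highest scores of 1258 and 756. The gap between Ly86 and Rreb1, a zinc-finger factor downstream of Ras, also held 10, with scores of 155 to 373 in replicate 1 and 87.3 to 476 in replicate 2. An intron group of 8 in Spon1 reached 2902 and 2334.

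The fifth locus, Gm20388, also with 12 far regions, rests on its annotation. This gene model spans 4434882 bp of chromosome 8 across many other genes, and its far regions lay in 4 separate places, 6 of them between Fam92b and Gse1, 1 between Irf8 and Foxf1a, 2 between Foxc2 and 1700018B08Rik and 3 between Banp and Gm22. Without this model they would be intergenic. The array region, with scores of 3100 and 2414, was one of the last 3, and its neighbours had scores of 120 to 241.

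The 10 far regions with the highest lower score lay on 8 chromosomes. Between Prok2, a secreted signalling peptide, and Rybp, a Polycomb-associated factor, a region on chromosome 6 (chr6:100009440-100010591) had the score of 3100 in both replicates, a value at which 17 peaks of replicate 1 and 8 of replicate 2 are tied. It was 166475 bp from the nearest TSS, that of a 7SK RNA gene, and 8 further far regions stood in the same gap. Between Med13l, a Mediator subunit, and Tbx3, a T-box factor needed for mammary bud formation, a region on chromosome 5 (chr5:119262348-119263709) had scores of 3100 and 3078. It was 252301 bp from a Med13l TSS and 857649 bp from Tbx3. Both regions held an ERE without mismatch, 45 and 3 bp from the midpoint.

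Between Plxnc1, a semaphorin receptor, and Cradd, a death-domain adaptor, the region chr10:94602063-94603193 scored 3100 and 2956. That beside the lens crystallin gene Cryba4 (chr5:112399477-112400757) scored 2776 and 2564. The region beside Irf2bp2, a transcriptional corepressor (chr8:129259452-129260950), scored 3103 and 2383, although its best ERE had 2 mismatches. Over its 1499 bp interval this region also held 1 AP1, 1 RUNX and 2 PAX2 sequences, but its 400 bp window held none of the motifs searched. Such motifs were not limited to regions without a close ERE. Over its interval the Cryba4 region, with an ERE without mismatch, held 1 AP1, 2 SF1 and 1 RUNX sequences. The highest-scoring region, beside Rybp and also with such an ERE, held 1 SF1 and 1 FOXA1 sequence over its interval. The Tbx3 region, also with an ERE without mismatch, held none of the other motifs. The Spon1 region, whose best ERE had 2 mismatches, held 1 GATA sequence. High scores therefore occurred with and without a close ERE.

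In an intron of Spon1, which encodes the matrix protein F-spondin, the region chr7:121105368-121106245 scored 2902 and 2334. Between St3gal1, a sialyltransferase, and the zinc-finger gene Zfat, chr15:67731927-67733339 scored 2456 and 2184, and beside Usp25 chr16:76694984-76696061 scored 2614 and 2073. With the Banp and Pgr regions these make up the 10. In the 400 bp window 4 of the 10 had an ERE with at most 1 mismatch, against 28.7% of all far regions, and over the whole interval 8 had one, against 29.8%. These intervals were 878 to 1499 bp wide, against a median of 551 bp, so more sequence was searched in them.

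Each far region was assigned the coding gene on either side, or its host gene. Together these were 570 of the 22350 protein-coding genes, or 2.55%, which is the background for the counts that follow. The length of the gaps beside the genes of each list was not taken into account, and the counts are descriptions with no test. Of 74 genes in a list of mammary and estrogen genes 21 (28.4%) flanked a far region, of 292 genes of developmental transcription factor families 22 (7.53%), and of 249 adhesion and channel genes, picked by families known from neurons but not limited to them, 17 (6.83%).

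The 21 genes of the mammary and estrogen list were Tbx3, Pgr, Tgfb2, Tprg, Trp63, Gata3, Jun, Prlr, Kit, Inhbb, Tgfbr2, Sox9, Id2, Myc, Gata6, Fgf10, Lef1, Fgfr2, Msx1, Ccnd1 and Runx1. They stood beside 56 far regions (8.03%). The greatest lower score ranged from 3078 beside Tbx3 to 80.6 beside Runx1, which encodes a RUNX factor of luminal cells, so some of these regions were at the edge of detection. A second region in the Tbx3 gap, 724142 bp upstream of that gene (chr5:119396149-119396923), scored 1657 and 1024 and held a pair of EREs.

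Tgfb2, a TGFβ ligand, had a far region 152056 bp from its nearest TSS (chr1:188305645-188306539) with scores of 1305 and 1371 and an ERE with 1 mismatch. Between Tprg and Trp63, the p63 gene of basal epithelial cells, 3 far regions lay 150445 to 153838 bp from Trp63. The strongest (chr16:25531581-25532365) scored 742 and 866 and held a pair of EREs. Gata3, the luminal GATA factor, had a far region 1106702 bp from its nearest TSS (chr2:8688279-8688914) with scores of 1010 and 725 and an ERE with 1 mismatch, and no coding gene stood between them.

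Other genes of the list had far regions of lower score. Prlr, the prolactin receptor, had 3 far regions at 312316 to 320686 bp, the strongest with 524 and 399. Inhbb, an activin subunit, had 5, with a highest lower score of 337, and Myc had 4, with 199. For Ccnd1, cyclin D1, the only far region scored 184 and 85.4, close to the lower limit in replicate 2.

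Of the developmental factors outside that list, Irx1, an Iroquois homeobox gene, had 5 far regions at 293563 to 339064 bp, the strongest with 1289 and 1140. Klf6, a Krüppel-like factor, had 3 (strongest 960 and 849), and so did Foxo1, a forkhead factor of insulin signalling (651 and 466). Of the adhesion and channel genes, Cdh5 had the strongest, 2063 and 1590, with 3 far regions at 746344 to 920801 bp. Flrt2 had 4, all more than 1 Mb away, of which 3 held an ERE. The genes named here were chosen after their values were seen.

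The study called genes induced or repressed in its own RNA-seq of mammary glands after estradiol, so these lists are not independent of its design, and only their names were used here. Of 208 coding genes called induced 14 (6.73%, exact interval 3.73 to 11.0) flanked a far region, against 2.55% of all coding genes. Of 261 called repressed 12 did (4.60%, 2.40 to 7.89), an interval that includes 2.55%. The induced genes stood beside 71 far regions and the repressed ones beside 21, and 5 of the induced genes (Pgr, Gm12824, Rybp, Zmiz1 and Gadd45g) accounted for most of the former. Other induced genes were Cyp26b1, an enzyme that degrades retinoic acid, with 5 far regions, Cxcr7, a scavenger receptor for CXCL12, with 4, and Gata6 with 2. A flanking gene was not always the nearest. All far regions beside Cxcr7 were nearer to the TSS of Cops8, at 100359 to 190548 bp. The strongest beside Cyp26b1 was nearer to a TSS of Dysf, at 106621 bp.

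Zmiz1, a transcriptional coregulator, had 9 far regions 254860 to 651679 bp upstream, the strongest with scores of 2402 and 1833 (chr14:26004947-26005600) and 2130 and 1386 (chr14:26023430-26024191). Rybp had 9, all downstream, at 143301 to 227419 bp from a TSS of the gene. Gadd45g, a stress and growth-arrest gene, had 9 at 267915 to 526944 bp, the strongest with 1664 and 1117 (chr13:52302757-52303599). This strongest region was 361065 bp from Gadd45g and nearer to a TSS of Diras2, at 323027 bp. In each of these gaps the far regions were few strong ones among several of low score.

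Of the repressed genes, Mylk4, a kinase of the myosin light chain family, was beside the region with the highest scores, 2117 and 1713 (chr13:32586738-32587451). This region was 156612 bp from the TSS of Gmds, on its other side, and so nearer to that gene. Cmya5, a muscle protein gene, had 1 far region with 1420 and 969. Gata3 and Prlr, described above, Nrxn3, Trim29, Xirp2, Mki67, Grhl2, Trdn, Fgfr2, whose model is unusually long in this annotation, and Fbn2 were the others.

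**Figure D5:**
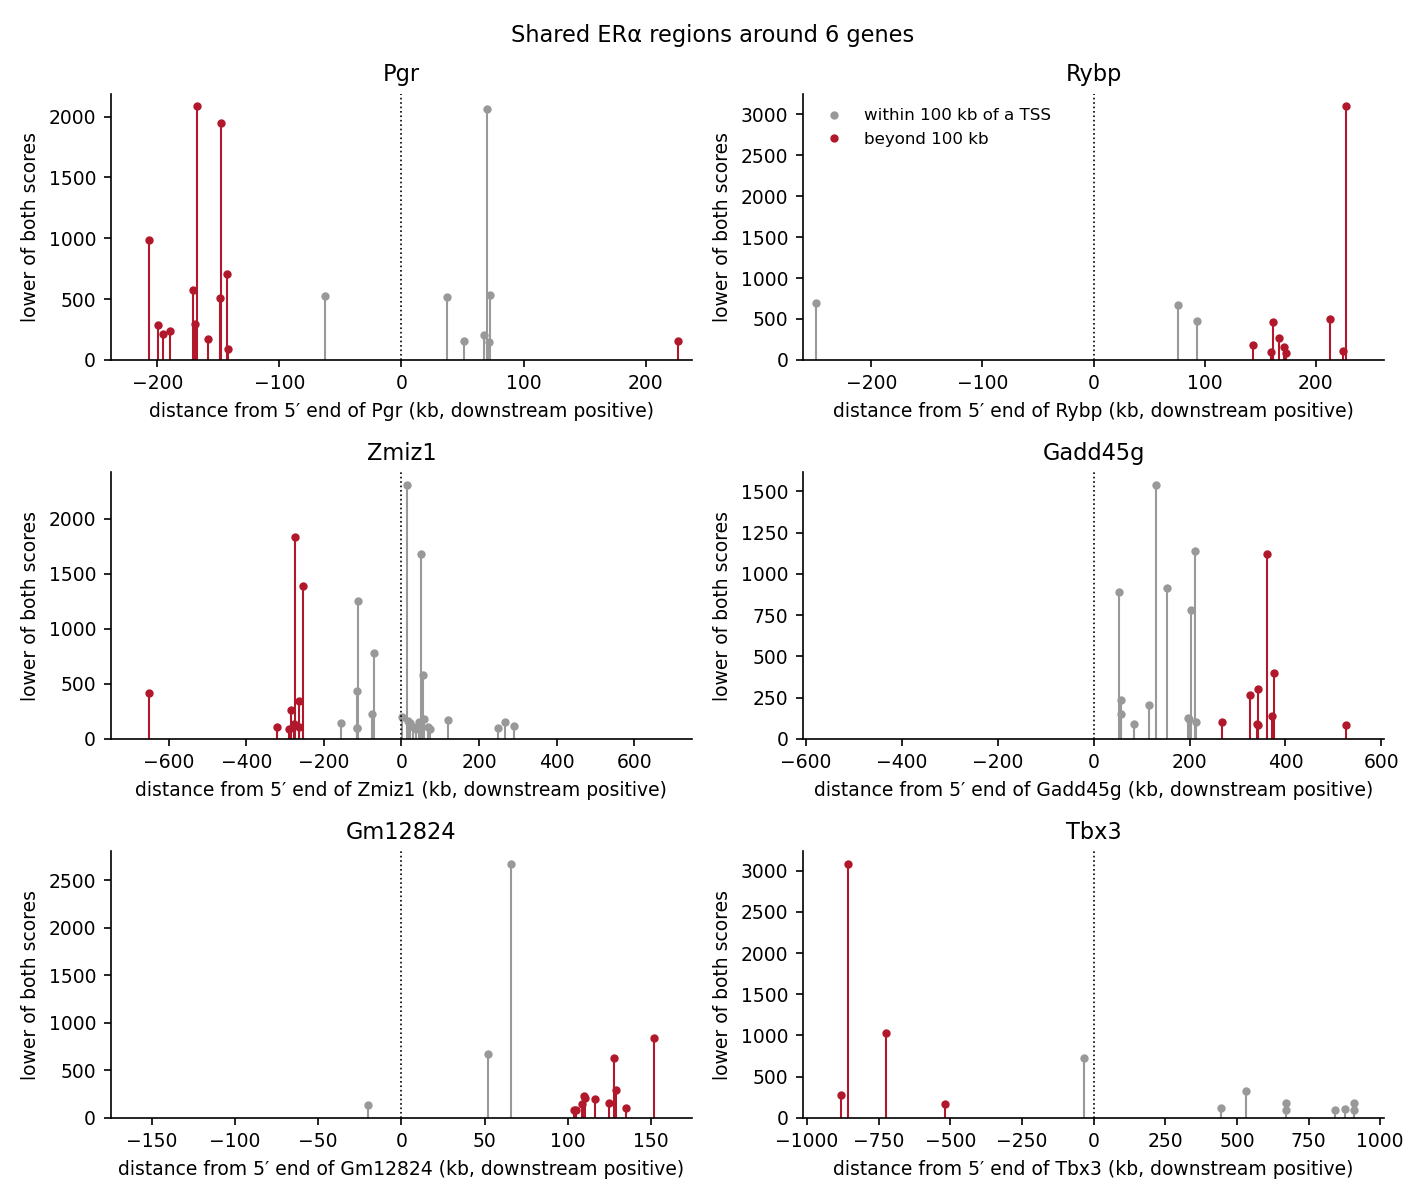
Lower of both scores (y axis) of shared regions by distance from the 5′ end of 6 genes (x axis, kb, downstream positive, dotted line at the 5′ end), far regions in red and nearer regions in grey. The 12 far regions upstream of Pgr stand together at 141965 to 207046 bp, and the tallest red stems are at 3100 for Rybp and 3078 for Tbx3.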

How the data were processed

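ERα was profiled by ChIP-seq in 2 replicates of estradiol-treated mammary glands, with 1 input. Per the study's methods, the authors mapped reads to mm9 with BWA (also named in the submitters' processing notes), and MACS then called the peaks with 1e-08 as the p-value limit. The names of the deposited lists set each replicate against the input. The MACS version is not given in the sources used here. The deposited lists, of 9607 and 6819 peaks, give positions and a score that the authors' caller wrote, −log10 of the peak's p-value multiplied by 10. They hold no reads, so the depth of a region is unknown. The study names one library kit and the sample labels another.

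Peaks were intersected at 1 bp, and midpoints were compared with the TSSs of 95414 transcripts of GENCODE vM1 on NCBIM37. All peak ends were within the chromosome lengths. Unplaced sequences, with 9 and 7 peaks, were left out. Motif and overlap shares of far and nearer regions were compared by two-sided Fisher's exact tests with Newcombe intervals of the difference, and other shares have exact Clopper-Pearson 95% intervals. All of these cover counting error only, regions are not replicates, and neighbouring regions share sequence context. The 2 replicates give no estimate of the spread between animals. Named regions are the 10 with the highest lower score, the 5 farthest, those of the 5 fullest loci, the 8 highest beside listed genes, those at the threshold and the 10 highest with an ERE without mismatch. The far regions, gene lists and motifs were chosen with earlier results of these data known. Other TSS sets, distances, p-values, overlaps, windows, mismatch limits and single replicates were tried, and the search of whole regions was added after the data were seen. Overlap, distance, motif search and tests were checked on simulated data. The tools were samtools 1.23.1, scipy 1.17.1, matplotlib 3.10.9, pysam 0.24.0, pandas 2.3.3, numpy 2.4.6 and Python 3.11.15.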

Additional observations from a re-analysis of the deposited data

How the results depend on the processing

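The number of far regions, 697, was 1184 with coding TSSs only, 1504 beyond 50 kb, 185 beyond 200 kb and 284 at a p-value of 1e-20, and 755 to 1051 in single replicates. With coding TSSs only, the motif differences (far minus nearer, percentage points) passed the Fisher test for ERE (-3.78), PAX2 (-2.86) and FOXA1 (2.70), in 1000 bp windows for PAX2 (-4.05) and FOXA1 (4.86), and with 2 ERE mismatches for the ERE (-4.94). In single replicates FOXA1 also passed, at 3.93 to 4.07. The GATA difference stayed positive but failed at 1e-10 (4.28), at 1e-20 (6.07), with 50% reciprocal overlap (4.39) and in 200 bp windows (2.43), and passed in 5 of 9 alternatives. Differences that did not pass the test changed sign for SF1 (-0.31 at 1e-10, -0.13 in 1000 bp windows), RUNX (-0.85 in 1000 bp windows), AP1 (-1.26 in 200 bp windows, -1.33 to 0.94 in single replicates) and the overlap of replicate 2 peaks (-0.0904 at 1e-10, -0.0229 at 1e-20). The ERE share was 40.1% at 1e-20, 6.03% without mismatch, 63.0% with 2 mismatches and 24.0 to 26.1% in single replicates. At 1e-20 median scores were 533 and 422, the nearest shared region was at 70740 bp, the nearest far region at 136028 bp, and the flanking genes were 310, with 13 of the mammary list, 9 induced and 7 repressed. With coding TSSs only they were 909. The causes were not tested. The remaining 91 of 128 values kept their direction and their side of the threshold, or moved within the limits set for them. Scores, not reads, limit what can be said of weak regions.

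No paired analysis was possible because the 2 replicates form 1 group and the input has no number.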
